A study of Saccharomyces cerevisiae with 10 samples.

Results

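The genes of chromosome XII of budding yeast were followed across 5 mutation-accumulation lines, in which mutations are gathered by passing a strain through repeated bottlenecks. The lines are labelled MA-A0 and MA-A1, MA-A3 and MA-A4, and MA-A8. Members were the genes of the array whose systematic name begins with YL, without 23 genes of the cytosolic and mitochondrial ribosomal protein families and of ILV5, TIS11 and HSP60. This left 466 of the 5711 genes named on the array, of which 60 lay on the left arm, 140 between the centromere and the ribosomal DNA (rDNA), 265 beyond the rDNA and 1 within it. Every pair of lines met on a single two-colour array, 10 in all, which put a line on 4 arrays, 2 with Cy5 and 2 with Cy3. The labels give total RNA and the dye of each line, and name no ancestor, growth condition or further genotype. They leave unsaid if the RNA of a line's 4 arrays was drawn from separate cultures, so errors and p-values measure the spread between these arrays, which may be technical. The chromosome was chosen because its genes were known to lie high together in 1 line. Its level in that line is therefore given as a description.

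Chromosome XII carries the only rDNA array of the yeast genome, a run of tandem repeats on the right arm. These repeats encode the ribosomal RNAs, are read by RNA polymerases I and III, and form the nucleolus. Around 1 end of the array stand copies of ASP3, the asparaginase secreted when nitrogen is short, and the telomeres carry YRF1 helicase genes of the Y' elements. The remainder of the chromosome is a mixed set of genes without a common function.

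Of the 466 members, 423 had values on at least 8 arrays and were tested, 392 of them with values on all 10. Of the 43 that were not tested, 31 had no value on any array and 12 had values on 1 to 5 arrays. The untested members included 16 of 60 on the left arm, 10 of 140 between the centromere and the rDNA, and 17 of 265 beyond it. Among them were MMP1, YCT1 and JLP1 of sulphur compound use and SSQ1 of mitochondrial iron-sulphur cluster assembly. An array held values for 6282 to 6824 of its 7744 probe rows, and the number of arrays limits the precision. Values were taken to be log2 ratios of the Cy5 line over the Cy3 line. Neither the base nor the direction is stated in the table, and if the ratios run the other way, all signs below turn. The array MA-A0 against MA-A8 matched the rest least. Across 5131 genes its ratios correlated at 0.05 (Pearson) with those predicted by the fit to the other 9 arrays, where the other arrays reached 0.29 to 0.75. Exchanging its lines in the fit lowered the residual sum of squares from 1565 to 1439, so its direction is in doubt, and it was kept as labelled. With its lines exchanged, an alternative added after seeing the data, the members' median in MA-A1 was 0.25. That value could hardly move, since for a gene measured on all arrays the estimate for MA-A1 rests on the 4 arrays with MA-A1. It therefore says nothing about the direction of this array.

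In MA-A1 the median member lay above the level of the other lines on the left arm, between the centromere and the rDNA, and beyond the rDNA. On centred arrays the median member was 0.23 higher in MA-A1 than in MA-A0, 0.19 higher than in MA-A4, 0.22 higher than in MA-A8 and 0.36 higher than in MA-A3, a mean of 0.25 ± 0.08 on the log2 scale (SD, n = 4 arrays). On the 6 arrays without MA-A1 the median member lay between -0.06 and 0.02 in the order of their labels. Each of the 4 arrays with MA-A1 was thus farther from 0 than any of these 6. The median of all other genes tested was between -0.06 and -0.02 on the 4 arrays with MA-A1.

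**Figure D1:**
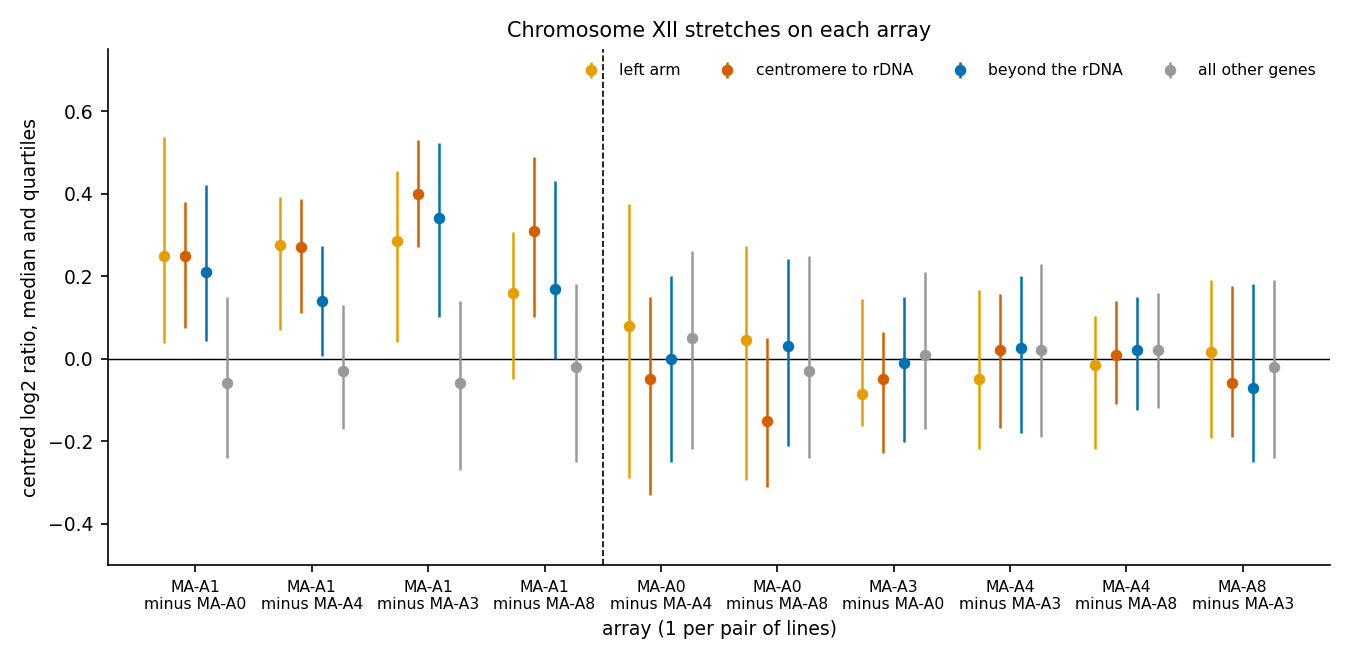
Median (points) and quartiles (bars) of the centred log2 ratio of chromosome XII members in 3 stretches and of all other genes tested, on each of the 10 arrays. The 4 arrays with MA-A1, left of the dashed line, have stretch medians from 0.14 to 0.40, and the 6 others from -0.15 to 0.08.

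Fitted over all arrays, the median member lay 0.25 above the average of the 4 remaining lines in MA-A1, which is 1.19-fold if the base is 2. The quartiles of the members were 0.14 and 0.36. A value above 0 was found for 379 of 423 members (89.6%), against 40.2% of the 4992 other genes tested, whose median was -0.04. On all 4 arrays with MA-A1 a positive value was found for 200 of the 409 members measured there (48.9%), against 5.09% of other genes. In the other lines the members' medians were -0.06 in MA-A0, -0.09 in MA-A3, -0.03 in MA-A4 and -0.07 in MA-A8, part of which follows by construction, since a value high in a single line enters the other 4 in diluted size and with the opposite sign. Leaving out any 1 array kept the median in MA-A1 between 0.22 and 0.28. For a gene measured on all arrays, leaving out an array without MA-A1 does not change its value in MA-A1. Only the 4 arrays with MA-A1 thus put this range to the test. Without centring the arrays the median was 0.14. With arrays centred on the genes of chromosomes other than IX, XI, XII and XIII it was 0.295.

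Each of the other 15 chromosomes had a median between -0.19 and 0.11 in MA-A1. Chromosome XI stood next to chromosome XII at 0.11, and the following one was at 0.05. Chromosome XIII lay at 0.56 in MA-A3 and chromosome IX at -0.24 in MA-A4, so each of these had its own outlying line, and in no other line did chromosome XII lie farther than -0.09 from 0.

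**Figure D2:**
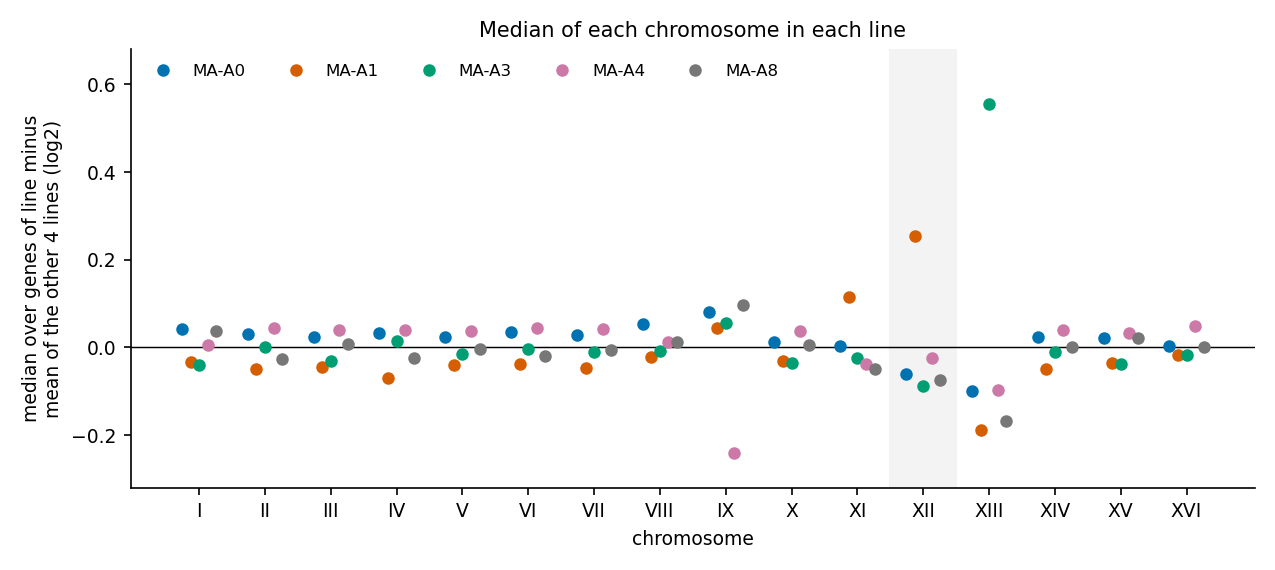
Median over tested genes of each line minus the mean of the other 4 lines (log2), for the 16 chromosomes, with 1 point per line and chromosome XII shaded (all of its 445 tested genes, the families left out of the members included). Chromosome XII lies at 0.26 in MA-A1, and chromosomes XIII in MA-A3 (0.56) and IX in MA-A4 (-0.24) lie apart from the rest.

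The position of the probes was compared as well. The rows of the table were cut into 16 consecutive blocks, and in 15 of them the members' median in MA-A1 was above that of the other genes of the same block, by up to 0.34. The exception was a block with 1 member, at -0.06. The place of a probe in the table may not be its place on the slide, which the deposited table does not give.

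At the scale of 15 neighbouring members the level in MA-A1 had no edge that separated a high stretch from a low one. A shorter low run beside the rDNA is described below. Bins of 15 neighbouring members had medians from 0.09 to 0.34, and all 28 were above 0. On the other chromosomes 99 of 325 such bins were above 0, from -0.33 to 0.21, and 19 of them reached the lowest bin of chromosome XII. The highest bin, at 0.34, ran from MSL5, which encodes the splicing factor that binds the branch point, to PUT1, the proline oxidase of mitochondria. The lowest, at 0.09, ran from GPN3 to GSY2, a glycogen synthase. The bins of the other lines stayed between -0.18 and 0.13.

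**Figure D3:**
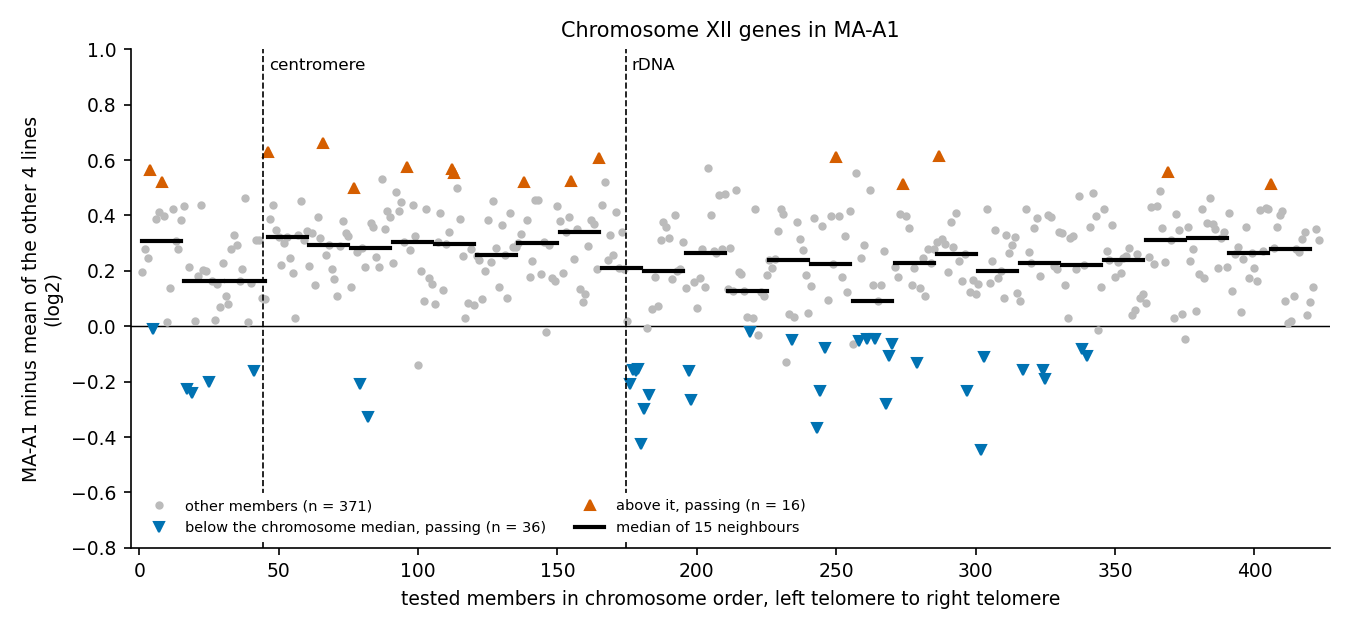
Difference of MA-A1 from the mean of the other 4 lines (log2, vertical axis) for the 423 tested members in chromosome order (horizontal axis), with black bars for the medians of bins of 15 neighbours and dashed lines at the centromere and the rDNA. All 28 bins lie above 0, and the 36 members marked as departing downwards lie at or below -0.01.

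The stretches on either side of the rDNA were then set against each other, in which the level they share cancels. The 248 tested members beyond the rDNA had a median of 0.23 in MA-A1, and the 174 before it had a median of 0.28. The median beyond minus the median before was -0.04 on the array with MA-A0, -0.13 with MA-A4, -0.06 with MA-A8 and -0.04 with MA-A3, so the stretch beyond was the lower one on 4 of 4 arrays. The 6 arrays without MA-A1 gave -0.03 to 0.14 in the order of their labels, and the largest, 0.14 on MA-A0 against MA-A8, whose direction is in doubt, exceeded in size any value with MA-A1. The fitted difference in MA-A1 was -0.07 ± 0.03 (SE, n = 10 arrays, 4 of them with MA-A1; exact sign-flip permutation test, two-sided, p = 0.125, adjusted over the 5 lines p = 0.625). That p of 0.125 is the smallest which 4 arrays of a line allow, so this test could not reach the threshold in any line. Without MA-A1 against MA-A4 the difference was -0.03. The fitted differences of the other lines were 0.04 in MA-A0, 0.03 in MA-A3, 0.03 in MA-A4 and -0.03 in MA-A8, with adjusted p = 0.625 for each (exact permutation test). Within the stretch before the rDNA, the 130 members between the centromere and the rDNA had a median of 0.30 in MA-A1 and the 44 of the left arm a median of 0.21.

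TAR1, which lies within the rDNA opposite to a ribosomal RNA gene, was at 0.02 in MA-A1 and was measured on 9 arrays. The 10 tested members before the rDNA, from PUT1 to RNH203, ran from 0.21 to 0.61 in MA-A1. Nearest to the rDNA on this side were YLR152C at 0.21 ± 0.10, ACS2, an acetyl-CoA synthetase, at 0.34 ± 0.10, and RNH203, a subunit of ribonuclease H2, at 0.21 ± 0.11 (SE of the fit). On the far side the first 8 tested members, from ASP3-1 to ASP3-4, were all below 0 in MA-A1, from -0.43 to -0.01. The next 3, YLR161W, YLR162W and MAS1, were between 0.06 and 0.18, and the 5 after them, from SHH4 to APS1, between 0.17 and 0.38. In gene order the low values therefore covered the ASP3 copies and the genes between them, and the genes listed after them were above 0. Whether probes of the genes between and just after the copies, YLR157C-A among them, match other sites was not examined. The values thus do not place the edges of a low stretch at this site. Probes cannot tell the ASP3 copies apart, so the 8 low members are not 8 separate observations. Leaving out the 10 members at each end of both stretches gave a difference between the sides of -0.04 in MA-A1.

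Gene by gene, limma's moderated tests were adjusted by Benjamini-Hochberg over all 5415 genes tested, and genes passed at 0.05. Among the 5 lines 109 of 423 members differed by the F test (25.8%), against 18.7% of all genes, a test that includes the shift for which the chromosome was chosen. The share of all genes includes chromosomes XIII and IX, which have outlying lines of their own. MA-A1 was the highest line for 69 of the 109, and MA-A3 was the lowest line for 42. In MA-A1 against the mean of the other 4 lines, 66 members passed as higher (15.6%), against 1.85% of all genes in this direction, and 233 members were past an unadjusted p of 0.05 in either direction. Of the 66, 7 lay on the left arm, 28 between the centromere and the rDNA and 31 beyond it. Lower in MA-A1 were 2 members, YLR157C-A and YLR227W-A, against 1.96% of all genes. These counts describe the members and were not read as support for the shift.

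The counts rested on single arrays to a degree that the median did not. The 66 members higher in MA-A1 became 1 without the array with MA-A0, 0 without that with MA-A4, 1 without that with MA-A8 and 0 without that with MA-A3. Without MA-A3 against MA-A0 they were 20, without MA-A0 against MA-A4 119, and without MA-A0 against MA-A8 159. The 109 members of the F test became 228 without MA-A0 against MA-A8. They became 69 without the array of MA-A1 and MA-A4, 58 without that of MA-A8 and MA-A1, 49 without that of MA-A3 and MA-A1, and 62 without that of MA-A3 and MA-A0. With ordinary in place of moderated variances 6 members passed the F test and 0 passed as higher in MA-A1, and with the arrays not centred these were 10 and 0. With the lines of MA-A0 against MA-A8 exchanged 176 members passed the F test and 113 passed as higher in MA-A1. The genes named below are therefore examples and no complete list.

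Grouped by role, genes of ribosome biogenesis, of sterol and lipid metabolism and of iron and copper handling had medians of 0.41, 0.40 and 0.39 in MA-A1, beside 0.25 for all members. Differences between lists were not tested. All 16 tested genes of ribosome biogenesis were above 0, from 0.20 to 0.66, and 9 passed as higher, beside 15.6% of members and 1.85% of all genes. SDO1, which releases an anti-association factor from the large subunit, was 0.27 higher than in MA-A0, 0.79 higher than in MA-A3, 0.76 higher than in MA-A4 and 0.83 higher than in MA-A8, and its fitted difference was 0.66 ± 0.11. NOC3, needed for export of large subunit precursors, was 0.15, 0.94, 0.78 and 0.64 higher in the same order, and 0.63 ± 0.11 in the fit. All 4 values of both genes were positive, with that against MA-A0 the smallest. EMG1, a methyltransferase of the small subunit RNA, was at 0.57 ± 0.13, BUD20 at 0.50 ± 0.11 and PWP1 at 0.49 ± 0.11, while NOP56, a core protein of box C/D particles, was the lowest of the list at 0.20 ± 0.09 and did not pass. For the 50 tested genes elsewhere in the genome whose symbols begin with UTP, NOP or RRP, the median in MA-A1 was 0.01. By limma's moderated test 0 of these 50 passed, with 3 higher and 1 lower at an unadjusted p of 0.05. Whether the list differs from those genes was not tested, and it was chosen with these results known.

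The 8 tested genes of sterol and lipid metabolism had a median of 0.40 in MA-A1, all above 0, and 3 passed as higher. ERG27, a keto reductase of ergosterol synthesis, was 0.39 higher than in MA-A0, 1.09 higher than in MA-A3, 0.29 higher than in MA-A4 and 0.31 higher than in MA-A8, and 0.52 ± 0.10 in the fit. ERG3, the sterol desaturase, was at 0.44 ± 0.09 and ELO3, a fatty acid elongase, at 0.48 ± 0.11. Of 4 genes of iron and copper handling 1 passed as higher, SMF3, a vacuolar metal transporter, at 0.50 ± 0.09. FRE1, a surface reductase, was at 0.43 ± 0.12, CTR3, a copper transporter, at 0.36 ± 0.10 on 9 arrays, and CCC1 at 0.03 ± 0.11, all 3 without passing.

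**Figure D4:**
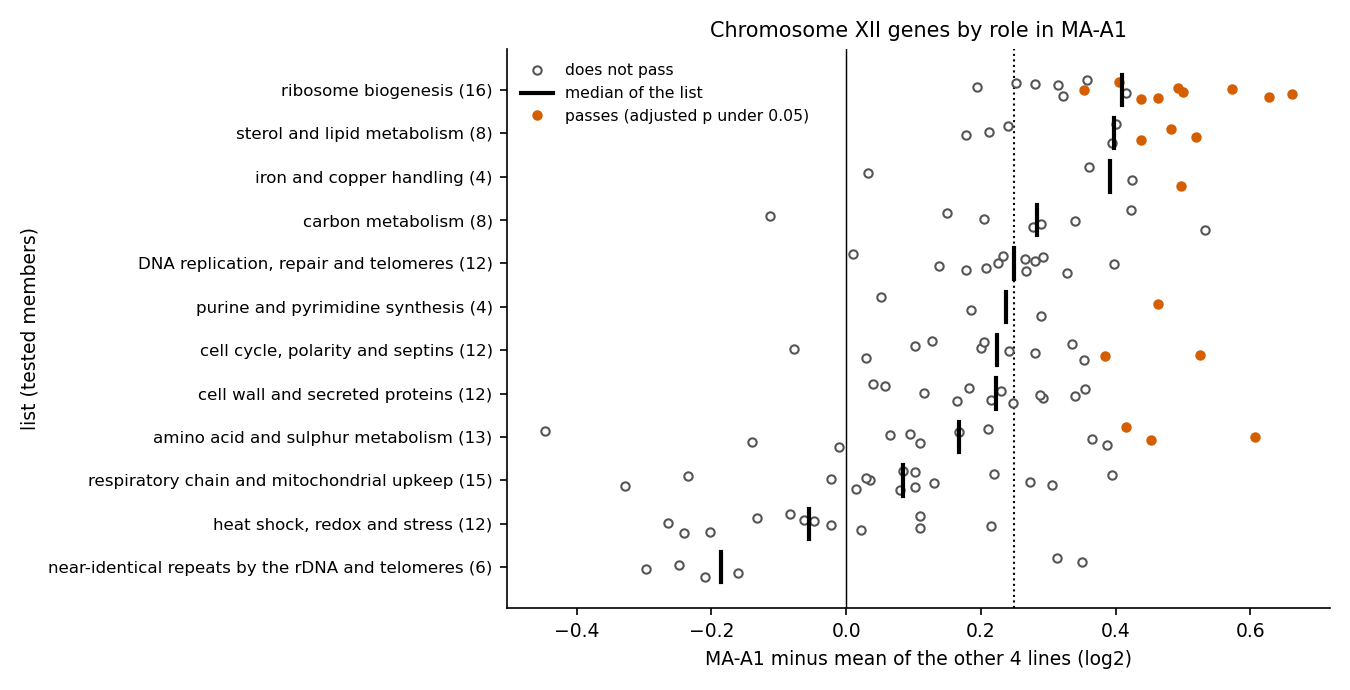
Difference of MA-A1 from the mean of the other 4 lines (log2, horizontal axis) for the tested genes of 12 lists of chromosome XII genes by role (vertical axis, number tested in brackets), with filled points for genes that pass, black bars for the list medians and a dotted line at the median of all members, 0.25. Ribosome biogenesis has a median of 0.41, close to those of sterol and lipid metabolism (0.40) and of iron and copper handling (0.39), and the medians of stress genes and of the near-identical repeats lie below 0.

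Lists of other roles stood near the median of the chromosome. Genes of DNA replication, repair and telomeres had a median of 0.25 over 12 tested, all of them above 0. The 12 genes of the cell wall and secreted proteins had 0.22, with CTS1, the chitinase that separates daughter cells, at 0.29 ± 0.09. The 8 genes of carbon metabolism had 0.28, with FBP1, the fructose bisphosphatase of gluconeogenesis, at 0.42 ± 0.11. By limma's moderated test 0 genes of these 3 lists passed in either direction in MA-A1, and at an unadjusted p of 0.05 the higher ones were 6, 5 and 2 in the same order. The 12 cell cycle and polarity genes had a median of 0.22, and APC2 and APC9 of the anaphase-promoting complex passed as higher at 0.53 ± 0.10 and 0.39 ± 0.10. Of 4 genes of purine and pyrimidine synthesis, with a median of 0.24, URA4, the dihydroorotase, passed at 0.46 ± 0.09. With ordinary variances 0 genes of any of the 12 lists passed as higher in MA-A1.

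Amino acid and sulphur metabolism was mixed, with a median of 0.17 over 13 tested genes and values from -0.45 to 0.61. Higher in MA-A1 were PUT1 at 0.61 ± 0.11, ALT1, an alanine transaminase, at 0.45 ± 0.09, and LEU3, the regulator of branched-chain amino acid synthesis, at 0.42 ± 0.09. PUT1 was 0.40 higher in MA-A1 than in MA-A0, 0.42 higher than in MA-A3, 0.93 higher than in MA-A4 and 0.68 higher than in MA-A8. The lowest of the list was MET17, which is described below.

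The lists of respiration, stress and near-identical repeats had the lowest medians of the 12. The 6 tested repeats had a median of -0.18 in MA-A1, with the 4 ASP3 copies below 0 and YRF1-4 and YRF1-5 above the members' median. The 15 genes of the respiratory chain and mitochondrial upkeep had a median of 0.09 in MA-A1, and the 12 of heat shock, redox and stress had -0.06, with 4 of 12 above 0. By limma's moderated test 0 genes of either list passed in either direction in MA-A1, with 3 higher and 2 lower respiratory genes and 1 higher stress gene at an unadjusted p of 0.05. For UBI4, the polyubiquitin gene, the log2 ratio of MA-A1 to MA-A0, MA-A3, MA-A4 and MA-A8 was -0.11, -0.10, -0.07 and -0.69, in that order, and its fitted value was -0.24 ± 0.15. HSP104, the disaggregase of heat-shocked cells, was at -0.20 ± 0.17, and TRX1, a cytosolic thioredoxin, at 0.22 ± 0.10. A low value and a smaller share of cells holding the RNA cannot be told apart in RNA of whole cultures.

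Members that did not follow the common level were read from a second fit, in which each array was centred on the median of the chromosome XII members. In MA-A1, 36 members fell below the level of the chromosome and 16 rose above it. Of all genes 49.9% passed as lower in this fit and 0.609% as higher, since the centring moves every gene of the other chromosomes down, which loosens the adjustment. At an unadjusted p of 0.001, chosen after seeing the data, 11 members were lower and 0 higher. Below the level were 29 of 248 members beyond the rDNA (11.7%) and 7 of 174 before it (4.02%), and above it were 5 beyond (2.02%) and 11 before (6.32%). Those 29 include 7 of the first 8 tested members beyond the rDNA, the run that holds the ASP3 copies. They are therefore not 29 separate observations, and the difference between the sides was not tested. All 36 low members also lay below 0 in the ordinary fit. Of the 35 of them measured on all 4 arrays with MA-A1, 23 lay under the members' median on every one. Among all 409 members so measured 38 did. The low members were chosen by a contrast that rests on these arrays, so the agreement is no separate support. The lower count became 17 without the array of MA-A1 with MA-A4, 18 without that with MA-A8 and 17 without that with MA-A3. The higher count became 26 on leaving out MA-A0 against MA-A8. It became 8 without the array of MA-A1 with MA-A0, 2 without that with MA-A4, 2 without that with MA-A8 and 5 without that with MA-A3.

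Of the members under the chromosome's level, those with the smallest p were YLR157C-A and YLR227W-A, which the annotation names only by position. Whether their probes also match sequences on other chromosomes was not examined, so their values may not be those of chromosome XII alone. The ratio of MA-A1 to MA-A0, MA-A3, MA-A4 and MA-A8 was -0.10, -0.45, -0.43 and -0.72 for YLR157C-A, which departed by -0.67 ± 0.10 from the chromosome (adjusted p = 0.000827). YLR227W-A was at -0.09, -0.31, -0.27 and -0.80 in the same order and departed by -0.62 ± 0.10 (adjusted p = 0.000962). All 4 arrays were thus below 0 for both genes. Of the 9 tested members with only a systematic name and a letter suffix, 6 departed downwards, beside 36 of 423 members and 49.9% of all genes. Among the other 4 lines 7 of the 9 differed, beside 13.5% of members and 16.7% of all genes. The median of the 9 in MA-A1 was -0.21. They are not 9 separate observations, since 6 of them form pairs that share a name up to the last letter. YLR227W-A and YLR227W-B, for example, overlap in the annotation, and spotted probes cannot separate overlapping genes. Sequence likeness between the pairs and the other members of this group was not examined, so still fewer separate observations may stand behind these counts.

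The 4 ASP3 copies, near-identical asparaginase genes that probes cannot tell apart, departed downwards in MA-A1, with departures from -0.55 to -0.41. ASP3-3 was at -0.11 in MA-A1 against MA-A0, at -0.62 against MA-A3 and at -0.73 against MA-A8, but at 0.27 against MA-A4 (departure -0.55 ± 0.09, adjusted p = 0.00114). The other 3 copies were above 0 against MA-A4 as well, from 0.33 to 0.62. These genes also differed among the 4 lines other than MA-A1, with MA-A4 the lowest, at -0.42 for ASP3-1 and ASP3-3, -0.46 for ASP3-2 and -0.44 for ASP3-4. As the copies share their sequence, their agreement counts as 1 observation and not 4.

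MET17, which joins sulphide to O-acetylhomoserine to make homocysteine, was the lowest member in MA-A1, at -0.45 ± 0.13, and departed by -0.70 ± 0.12 from the chromosome (adjusted p = 0.00143). Against MA-A4 its ratio was -1.82, while against MA-A0, MA-A3 and MA-A8 it was 0.14, -0.15 and 0.04, all under the members' median on those arrays. Without the array with MA-A4 the departure of MET17 was -0.57 (adjusted p = 0.0202). In MA-A4 the gene was higher on all 4 arrays, and its fitted value of 1.36 ± 0.13 passed there (adjusted p = 0.00022).

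Of the 15 tested genes of the respiratory list 3 departed downwards, COX12, ATP14 and MSS51, and 12 were above 0 in MA-A1. COX12, a subunit of cytochrome c oxidase, was at -0.48 in MA-A1 against MA-A0, -0.33 against MA-A3, -0.13 against MA-A4 and -0.37 against MA-A8 (departure -0.58 ± 0.13, adjusted p = 0.00372). ATP14, a subunit of the ATP synthase, was at -0.21, -0.29, -0.14 and -0.30 in the same order (departure -0.48 ± 0.09, adjusted p = 0.00169). Both were below 0 on 4 of 4 arrays. MSS51, which promotes translation of the mitochondrial COX1 message, departed by -0.27 ± 0.10. From outside this list, SDH2, the iron-sulphur subunit of succinate dehydrogenase, departed by -0.48 ± 0.12 and ACO1, the aconitase of the citric acid cycle, by -0.36 ± 0.11. ACO1 was the only one of the 8 tested genes of carbon metabolism to depart, and SDH2 stands on none of the lists. Both were named after their values were seen.

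**Figure D5:**
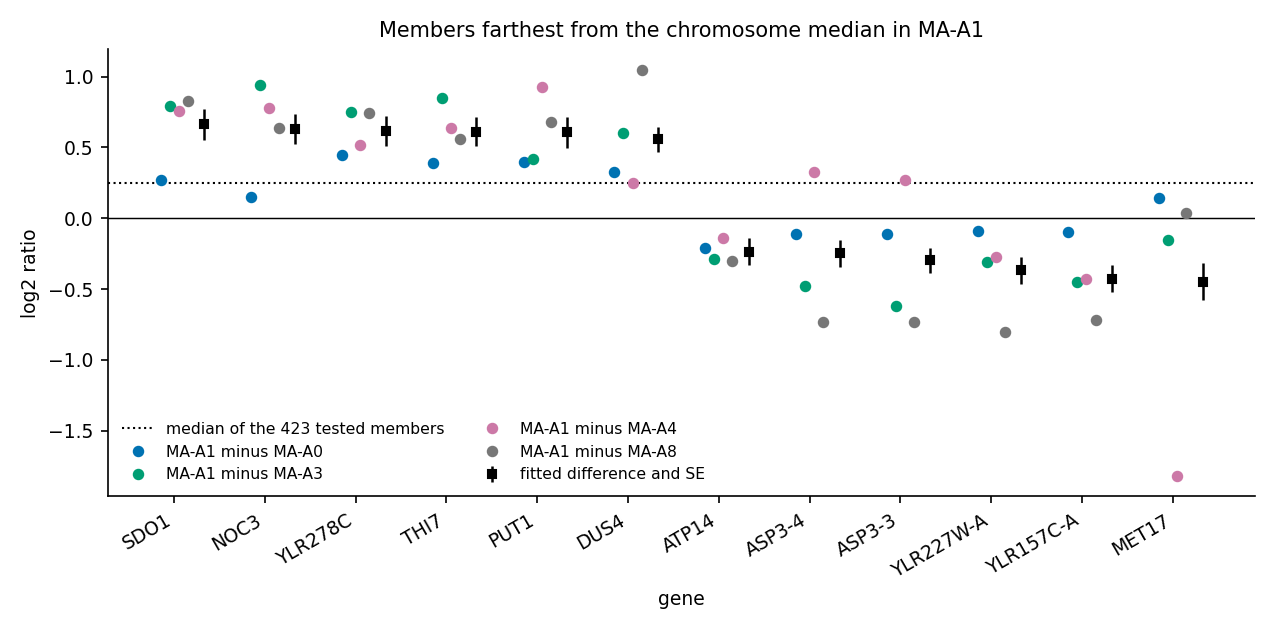
The 12 members chosen by the smallest p for a departure from the chromosome's level in MA-A1, 6 in each direction, with coloured points for the log2 ratio of MA-A1 to each other line on its array, and black squares for the fitted difference with its SE. The dotted line is the median of the members, 0.25, and the MET17 value of -1.82 against MA-A4 stands apart from its other 3.

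In the list of stress genes 7 of 12 tested members departed downwards, HSP104, UBI4, TFS1, GSY2, DCS1, SYM1 and GRX8, and 0 upwards. The lower departures were 36 of 423 among members and 49.9% among all genes, and whether the list differs from either was not tested. TFS1, an inhibitor of carboxypeptidase Y, was at -0.11 in MA-A1 against MA-A0, -0.50 against MA-A3, -0.42 against MA-A4 and -0.03 against MA-A8 (departure -0.51 ± 0.14, adjusted p = 0.008). SYM1, a protein of the inner mitochondrial membrane, was at -0.51 in MA-A1 against MA-A3 and at 0.08, 0.17 and 0.07 against MA-A0, MA-A4 and MA-A8. HSP104 was at -0.71 in MA-A1 against MA-A8 and between -0.12 and 0.06 against the other lines. The lowest value thus came from the array with MA-A3 in SYM1 and from that with MA-A8 in HSP104.

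Above the level of the chromosome, SDO1 departed by 0.41 ± 0.11 (adjusted p = 0.00845), NOC3 by 0.38 ± 0.11 (adjusted p = 0.0106) and THI7, the thiamine transporter of the plasma membrane, by 0.36 ± 0.10 (adjusted p = 0.0121). THI7 was 0.39 higher in MA-A1 than in MA-A0, 0.85 higher than in MA-A3, 0.64 higher than in MA-A4 and 0.56 higher than in MA-A8. YLR278C was 0.45, 0.75, 0.52 and 0.74 higher in the same order, with a departure of 0.37 ± 0.11 (adjusted p = 0.0129). DUS4, a dihydrouridine synthase of transfer RNA, was 0.33, 0.60, 0.25 and 1.05 higher, with a departure of 0.31 ± 0.10 (adjusted p = 0.0167). For the 3 genes all 4 arrays were positive. Of the 16 members above the level, 13 lay over the members' median on each of the 4 arrays. Among all 409 members measured on these arrays 38 did. The 16 were chosen by a contrast that rests on the same arrays, so the agreement is no separate support. None of SDO1, NOC3, THI7, YLR278C, DUS4 and PUT1 passed as departing without MA-A1 against MA-A4, and none did without MA-A8 against MA-A1. THI7 also did not pass without the array with MA-A0, nor DUS4 and PUT1 without that with MA-A3, whereas the 6 low members named by p, ATP14, MET17, ASP3-3, ASP3-4, YLR157C-A and YLR227W-A, passed without any single array.

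The contrast for which the chromosome was chosen plays no part in a comparison of the 4 lines other than MA-A1. Among them 57 of 423 members differed by the F test (13.5%), against 16.7% of all genes and 17.0% of those that are not members, a difference in share that was not tested. Both background shares include chromosome XIII, at 0.56 in MA-A3, and chromosome IX, at -0.24 in MA-A4. They are therefore no measure of how much genes of unshifted chromosomes vary. MA-A3 was the lowest of the 4 lines for 25 of the 57 and MA-A8 the highest for 17. By stretch 5 of 44 passed on the left arm, 13 of 130 between the centromere and the rDNA and 39 of 248 beyond it. The count of 57 became 96 without MA-A0 against MA-A8, and 37 on leaving out either MA-A8 against MA-A3 or the array of MA-A3 and MA-A0. It was 79 with the lines of MA-A0 against MA-A8 exchanged, 6 with ordinary variances and 11 without centring.

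TMA10, which encodes a ribosome-associated protein, had the smallest p among these 4 lines. On their arrays its ratio was -2.29 for MA-A8 to MA-A3, -1.58 for MA-A4 to MA-A3 and 0.87 for MA-A3 to MA-A0. Its fitted difference between MA-A3 and MA-A8 was 1.81 ± 0.14 (F test, adjusted p = 1.81e-05). YLR297W had the same order, with MA-A3 above MA-A8 by 1.35 ± 0.14 (adjusted p = 0.000128). MA-A3 was above the other line on all of its 3 arrays in this set for both genes.

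BNA5, the kynureninase of NAD synthesis, was lowest in MA-A4, by 1.09 ± 0.12 from MA-A0 (F test, adjusted p = 0.000126). On their arrays its ratio was 1.15 for MA-A0 to MA-A4, -1.07 for MA-A4 to MA-A8 and -0.44 for MA-A4 to MA-A3. MET17 went the other way, with MA-A4 higher than MA-A0 by 1.57 ± 0.16 (adjusted p = 0.000126). YLR035C-A and YLR227W-B were higher in MA-A4 than in MA-A3 by 1.38 ± 0.14 (adjusted p = 0.00016) and 1.08 ± 0.16 (adjusted p = 0.00076). On the array these 2 lines shared the values were 1.80 and 1.72. Sequence likeness of YLR035C-A and YLR227W-B to each other or to other chromosomes was not examined, so they may not be 2 separate observations.

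Some genes near the ends of the chromosome varied among the lines, and they may not be separate observations. YRF1-4 and YRF1-5, near-identical helicase genes at the right telomere, were at 0.35 ± 0.12 and 0.31 ± 0.11 in MA-A1. The ratio of MA-A1 to MA-A3 and to MA-A4 was 0.85 for YRF1-4, and that to MA-A0 and to MA-A8 was -0.15. The level was thus higher in MA-A0, MA-A1 and MA-A8 than in the other lines, and the genes differed among the lines other than MA-A1 (F test, adjusted p = 0.0033 and 0.00659). YLL066C near the left telomere had the same pattern, with ratios of MA-A1 to MA-A3 and MA-A4 of 0.81 and 0.66, and to MA-A0 and MA-A8 of -0.06 and -0.30 (F test among the other 4, adjusted p = 0.00561). YLL067C, the first member of the chromosome, was at 0.20 ± 0.11 in MA-A1 and did not pass among these lines (adjusted p = 0.0696). Whether probes of YLL066C and YLL067C match YRF1-4 and YRF1-5, or any of these match other chromosomes, was not examined. The shared pattern is therefore not read as agreement between the ends, and the values may not be those of chromosome XII alone.

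By role, 6 of 13 genes of amino acid and sulphur metabolism, 4 of 12 of stress, 6 of 6 repeats, which are copies of 2 genes, and 2 of 15 of the respiratory list differed among the 4 other lines, and so did 1 each of 6 other lists. These counts stand beside 13.5% of members and 16.7% of all genes, a share that the respiratory list did not exceed, and no list was tested against it. The share of all genes includes the outlying chromosomes XIII in MA-A3 and IX in MA-A4. TRX1 was 0.82 ± 0.12 higher in MA-A0 than in MA-A3 (adjusted p = 0.002), ALT1 0.74 ± 0.11 higher in MA-A4 than in MA-A3 (adjusted p = 0.00217) and URA4 0.77 ± 0.11 higher in MA-A8 than in MA-A3 (adjusted p = 0.0019). TAL1, the transaldolase, was 0.72 ± 0.14 higher in MA-A4 than in MA-A3 (adjusted p = 0.00918). COX19, which delivers copper in mitochondria, differed by 0.65 ± 0.11 between MA-A3 and the lower MA-A8 (adjusted p = 0.00558). In ribosome biogenesis 1 of 16 passed, NOC3 (adjusted p = 0.0285), and in the cell wall list 0 of 12 did by limma's moderated F test. Of the 66 members higher and 2 lower in MA-A1, 11 also differed among the other lines.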

How the data were processed

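The authors deposited a table with 10 columns, 1 for each two-colour array, taken here as log2 ratios of Cy5 to Cy3 from their range and sign. No source used here gives the base, direction, scanner, background handling or normalization. Array medians ran from -0.84 to 0.41, so each array was centred on its median. Rows of a gene were averaged (3 members have several). Of 6116 named rows 6111 matched the R64 annotation, used for symbols and gene order only. Another 1628 rows have no name and were not used. No batches are stated.

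With limma 3.58.1 (R 4.3.3), every gene's ratios were modelled as the difference between both lines of an array plus a dye term, which left 5 residual degrees of freedom and a prior of 9.19. The same 10 arrays enter every comparison. Members, lists and tests were chosen with earlier results of these data known. Named genes are the 5 highest and 5 lowest members in MA-A1, up to 6 departing members of each sign, the 6 with the smallest p among the other 4 lines, those beside the rDNA and at the chromosome ends, and up to 3 of each list by the F test. Other genes named were chosen after their values were seen. The model was tested on simulated data. A planned search of promoter motifs was not run, and promoter sequences are not used here.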

Additional observations from a re-analysis of the deposited data

Results flagged for a closer look

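For 4 genes 1 of the 4 arrays with MA-A1 lay far from the other 3, by a gap to the nearest value that took up more of the whole range than Dixon's 95% critical value allows. Of 57 sets of 4 values examined 4 stood out in this way, where chance gives about 1 in 20. MET17 was at -1.82 against MA-A4, and its other values were between -0.15 and 0.14. SDO1 was at 0.27 against MA-A0, with the others between 0.76 and 0.83. SYM1 was at -0.51 against MA-A3, with the others between 0.07 and 0.17. ERG27 was at 1.09 against MA-A3, with the others between 0.29 and 0.39. Their causes were not tested.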

How the results depend on the processing

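The members' median in MA-A1 kept its sign under all alternatives run. Some of these could hardly move it: for a gene measured on all arrays, the value in MA-A1 stays the same when an array without MA-A1 is left out, turned or exchanged. Leaving out 1 array in turn gave 0.224 to 0.278 for all members, 0.188 to 0.242 on the left arm, 0.281 to 0.312 between the centromere and the rDNA, and 0.198 to 0.263 beyond it. Without centring these medians were 0.1375, 0.09, 0.1812 and 0.1187. The difference between the stretches ran from -0.094 to -0.034 on leaving out 1 array, and no setting made it pass. With all arrays in the fit it could not have passed, since the smallest p of the exact sign-flip permutation test is then 0.125. Counts of genes moved far more. With values as deposited 10 members passed the F test, 0 were higher and 0 lower in MA-A1, and 11 differed among the other 4 lines. Without the dye term these were 50, 8, 0 and 29, with 9 higher and 22 lower departures. With ordinary variances they were 6, 0, 0 and 6, with 22 lower departures. Centring within blocks of rows gave 167 by the F test and 106 higher in MA-A1. Centring on other chromosomes gave 115 higher and 1 lower in MA-A1, and turning the sign of MA-A0 against MA-A8, the array that matched the others least, gave 1 lower, with 153 by the F test and 71 among the other 4 lines. Exchanging its lines with the dye term kept, added after seeing the data, gave 176 by the F test, 113 higher and 4 lower in MA-A1. At an unadjusted p of 0.001, added after seeing the data, 11 departed lower and 0 higher. On leaving out 1 array the F test counted 49 to 228 members, 0 to 159 were higher and 0 to 6 lower in MA-A1, 37 to 96 differed among the other 4 lines, and 2 to 26 departed higher and 17 to 46 lower. Of 34 results for named genes that passed, 16 no longer did with values as deposited, 21 with ordinary variances, 11 without the dye term, and 0 to 22 on leaving out 1 array. No value of a named gene that had passed its own test changed sign. Differences of MA-A1 from the other lines that had not passed did so: with values as deposited BNA5 was at -0.02, IMD3 at -0.0625, COX19 at -0.035 and COX8 at -0.03 in MA-A1. Centring within blocks gave SYM1 0.005 and COX8 -0.0125. On leaving out 1 array COX8 ran from -0.048 (without MA-A1 against MA-A4) to 0.232, and SYM1 from -0.137 to 0.021 (without MA-A8 against MA-A1). The causes were not tested. Lines are paired within each array by the fit, and beyond that no paired analysis was possible because the labels give no replicate numbers.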
